A study of Mus musculus with 6 samples.

Results

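The prostate epithelium is built and kept by a small set of DNA-binding proteins, and 9 of their genes were followed here in mouse prostates exposed to testosterone and oestradiol: Foxa1, Trp63, Sox9, Gata2, Gata3, Spdef, Ehf, Elf3 and Klf5. They were picked by name, as the rows of the deposited gene table that carry these symbols. No threshold on any measured value was used, but earlier results of these data were known. All 9 were found among the 34745 genes of that table, and all 9 had enough reads to be tested, within 15580 tested genes. RNA was sequenced from the prostates of 6 male C57BL/6 mice, with no castration or engineered allele named in the labels or methods. The T + E2 group (n = 3) carried a subcutaneous slow-release pellet of testosterone and estradiol for 12 weeks, renewed monthly according to the methods of the study, and the CON group (n = 3) received only the skin incision and its closure. Each library came from a different mouse and from a whole piece of prostate, and the labels do not say which lobes it held.

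These proteins divide the work by cell type. The gland is a double layer of basal cells, which need p63 (encoded by Trp63), and of luminal cells, which secrete and depend on androgen. FOXA1 is a pioneer factor that opens chromatin for other factors, GATA2 acts with it at shared enhancers, and GATA3 is the second GATA factor of the luminal lineage. SOX9 is required for the budding of the embryonic prostate. SPDEF, EHF and ELF3 are ETS-family factors found mainly in epithelia, SPDEF being known for secretory and goblet-type cells, and KLF5 is a zinc-finger factor of basal and progenitor-type epithelial cells.

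The 9 factors did not move as a block. In the T + E2 group Gata2, Spdef and Ehf fell, Klf5 and Trp63 rose, and Foxa1, Sox9, Elf3 and Gata3 did not pass the test (adjusted p under 0.05 by the quasi-likelihood test of edgeR, with Benjamini-Hochberg correction over all tested genes). Thus 5 of 9 passed, or 55.6%, against 19.6% of all tested genes. Since the factors were chosen with earlier results known, this contrast is not that of a blind choice. Of the 5, 2 were higher, where 10.4% of all tested genes were higher, and 3 were lower, where 9.25% of all tested genes were lower. Gata2 and Klf5 also exceeded an absolute log2 fold change of 1, a size reached with an adjusted p under 0.05 by 7.64% of tested genes. The ranges of the 3 CON and the 3 T + E2 mice did not overlap for 6 of the 9 factors, the 5 that passed and Foxa1, while 40.7% of all tested genes had separate ranges. The 9 log2 fold changes had a median of -0.28, those of all tested genes a median of -0.0021, and 7 of the 9 estimates were negative.

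Prostate luminal secretory markers were abundant in every mouse, and libraries were alike in size, with 14816146 to 16555549 counts over genes and scaling factors of 0.9562 to 1.026. Genes of the seminal vesicle, an adjacent gland, separated 2 mice from the rest: 7 of its secretory genes summed to 10300 CPM (read counts scaled to library size) in CON replicate 2 and to 642 in T + E2 replicate 2, but to between 0.628 and 4.1 in the other 4 mice. CON replicate 2 also had the highest sum of 6 adipocyte markers, 706 CPM against 74.3 to 194 in the other 5. Without CON replicate 2, and again without T + E2 replicate 2, the same 4 factors passed in the same directions, namely Gata2, Spdef, Trp63 and Klf5.

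**Figure D1:**
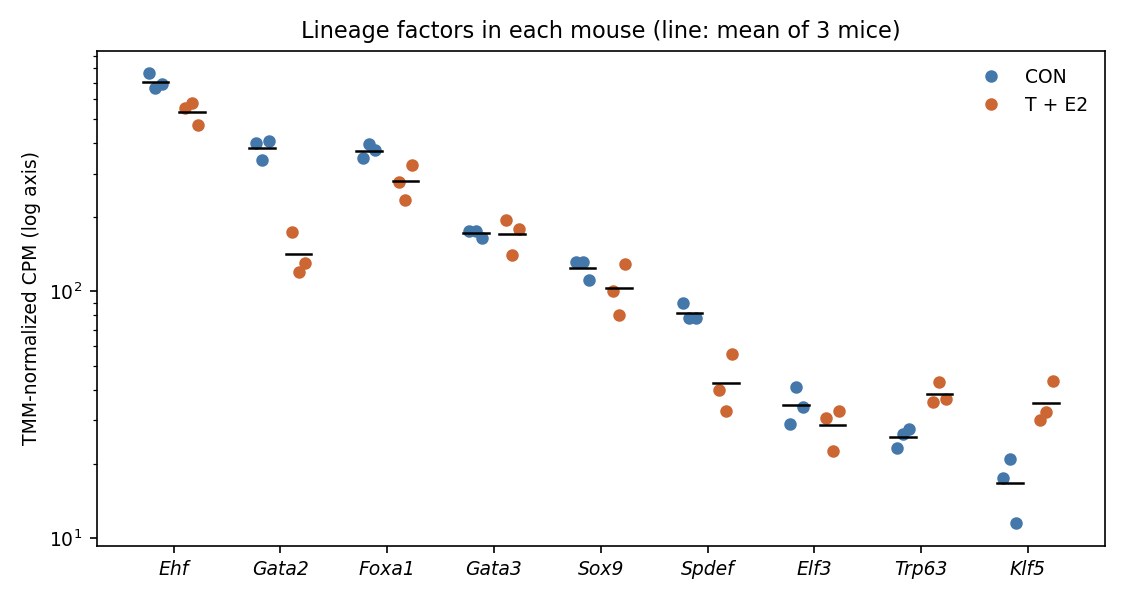
TMM-normalized CPM (log axis) of the 9 lineage factors in each of the 3 CON mice (blue) and the 3 T + E2 mice (orange), with a line at each mean. Gata2 and Spdef sit clearly lower and Klf5 and Trp63 higher in the T + E2 mice, whereas the points of Gata3, Sox9 and Elf3 intermix.

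Gata2 had the strongest response of the 9. Its gene lies at chr6:88193891-88207032 on the plus strand (ENSMUSG00000015053) and was at 398, 340 and 406 CPM in CON and at 174, 120 and 130 CPM in T + E2. The highest hormone-treated mouse lay far under the lowest control. Means were 381.4 ± 36 CPM in CON and 141.3 ± 29 CPM in T + E2 (SD, n = 3 each), 2.7-fold lower. The log2 fold change was -1.43 (SE 0.16, normal-approximation 95% interval -1.74 to -1.13, edgeR adjusted p = 0.0007). Gata2 kept this call in each of 16 other settings, including the omission of each mouse in turn, over which the log2 fold change ran from -1.61 to -1.32.

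Gata3, the other GATA factor of the prostate luminal lineage, lies at chr2:9857078-9890034 on the minus strand (ENSMUSG00000015619) and gave 176, 175 and 165 CPM in CON and 194, 141 and 179 CPM in T + E2. The T + E2 mice lay on both sides of the tightly grouped controls. The log2 fold change was -0.01 (SE 0.12, adjusted p = 0.97), with a normal-approximation 95% interval of -0.25 to 0.23. A change of the size seen for Gata2 lies far outside it. Gata3 shares its locus with 4930412O13Rik on the opposite strand, whose counts amounted to 22.7% of those of Gata3 and which fell in T + E2 (log2 fold change -0.63, adjusted p = 0.00568). Whether the counting used strand is not given in the sources used here, so reads of this pair may have been exchanged.

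Within each mouse, the ratio of Gata3 to Gata2 turned over. On the log2 scale of deposited FPKM (fragments scaled to gene length and library size) it was -0.50, -0.29 and -0.62 for the controls and 0.82, 0.91 and 1.13 after T + E2. All controls held more Gata2 than Gata3 per unit length, and all hormone-treated mice the reverse. The mean moved from -0.47 ± 0.17 to 0.95 ± 0.16 (SD, n = 3), a difference of 1.43 or 2.69-fold (exact permutation test, two-sided p = 0.1, the smallest that 3 against 3 mice allow, adjusted p = 0.25 over 5 ratios). The difference does not depend on gene length, which cancels within a gene, while the level of a ratio does. In bulk tissue, fewer cells of a type and less RNA per cell cannot be told apart, for this ratio and for every level given here.

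Spdef, the secretory ETS factor at chr17:27714352-27728951 on the minus strand (ENSMUSG00000024215), was the second factor to lose expression. It gave 89.8, 78.2 and 78.2 CPM in CON and 39.7, 32.7 and 55.5 CPM in T + E2. The groups were separate, although the T + E2 mice differed among themselves more than the controls did. The mean went from 82.07 ± 6.67 to 42.66 ± 11.7 CPM (SD, n = 3), 1.92-fold lower (log2 fold change -0.94, SE 0.18, edgeR adjusted p = 0.00985). The call held without each mouse in turn (adjusted p 0.00267 to 0.0366).

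Ehf, the most abundant of the 9 by counts, lies at chr2:103263433-103303278 on the minus strand (ENSMUSG00000012350). Its levels were 765, 669 and 689 CPM in CON and 552, 578 and 472 CPM in T + E2, without overlap. The decrease was small, 1.33-fold, from 707.6 ± 50.7 to 533.9 ± 55.4 CPM (log2 fold change -0.41, SE 0.11, edgeR adjusted p = 0.0395). It was also the least firm of the 5 calls, since it was lost on the omission of any one of the 6 mice (adjusted p 0.0573 to 0.0932).

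Elf3, the third ETS factor, at chr1:135253575-135258568 on the minus strand (ENSMUSG00000003051), gave 29, 40.8 and 34 CPM in CON and 30.8, 22.6 and 32.9 CPM in T + E2. The ranges overlapped, and the log2 fold change of -0.27 (SE 0.17, adjusted p = 0.307) had a normal-approximation 95% interval of -0.61 to 0.07. Relative to Elf3, Spdef had log2 ratios of 0.87, 0.18 and 0.44 in CON and of -0.39, -0.22 and -0.01 in T + E2, a difference of -0.70 without overlap (exact permutation test p = 0.1, adjusted p = 0.25). The ratio of Ehf to Elf3 differed by -0.14 (p = 0.7 by the same exact test), and that of Spdef to Ehf by -0.57 with overlapping groups (p = 0.4). The lower ratio of Spdef to Ehf came from T + E2 replicates 1 and 2, while replicate 3, at -2.36, equalled 2 of the controls.

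**Figure D2:**
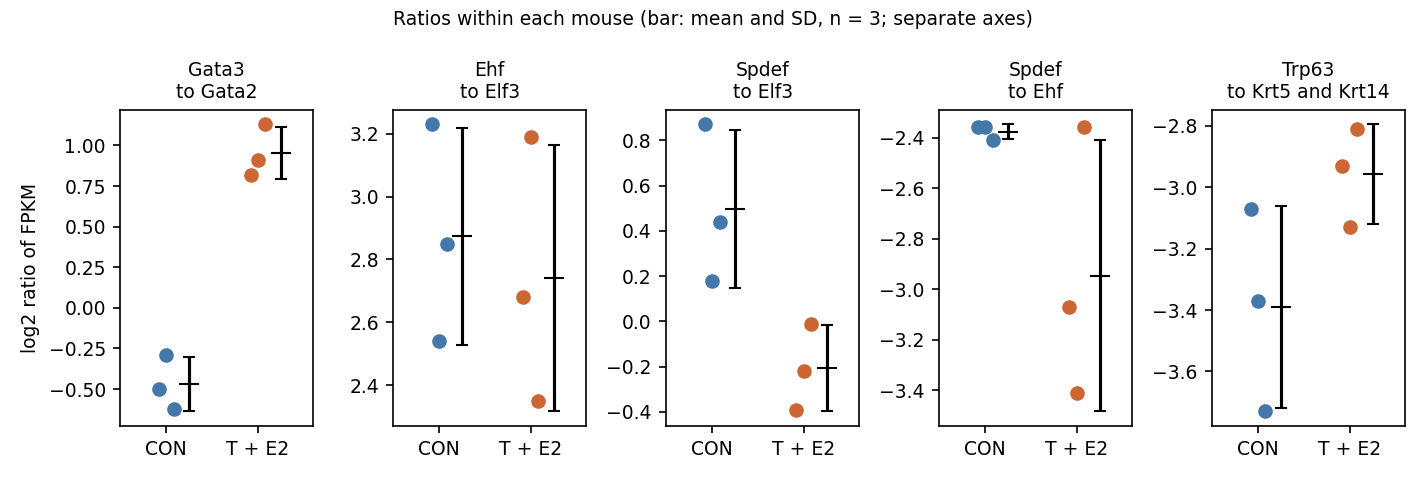
Log2 ratios of deposited FPKM within each mouse for 4 pairs of lineage factors and for Trp63 against the mean of Krt5 and Krt14, with CON mice in blue, T + E2 mice in orange and the bar giving the mean and SD (n = 3). Each panel has its own vertical axis. Gata3 to Gata2 and Spdef to Elf3 separate the groups, and the other 3 ratios overlap.

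For Gata2 and Spdef, the factors with the largest decreases, the sequence just before the transcription start is shown, so that the letters searched for hormone receptor and general factor motifs can be read. RefSeq promoters (GRCm38.p6, 250 bases before the start) were at hand for 5 of the 9 factors, namely Foxa1, Gata2 with 2 starts, Gata3, Spdef and Elf3. Capitals mark a match to AGAACA or its reverse complement TGTTCT, a half-site of steroid receptors, and the Gata2 window holds none.
Gata2, distal start, chr6:88193641-88193890, plus strand: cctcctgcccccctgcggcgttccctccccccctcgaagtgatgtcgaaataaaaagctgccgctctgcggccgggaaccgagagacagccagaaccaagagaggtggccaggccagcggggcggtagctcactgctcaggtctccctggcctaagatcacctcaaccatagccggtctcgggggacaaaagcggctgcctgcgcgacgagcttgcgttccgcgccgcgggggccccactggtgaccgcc
Spdef, chr17:27728952-27729201, minus strand: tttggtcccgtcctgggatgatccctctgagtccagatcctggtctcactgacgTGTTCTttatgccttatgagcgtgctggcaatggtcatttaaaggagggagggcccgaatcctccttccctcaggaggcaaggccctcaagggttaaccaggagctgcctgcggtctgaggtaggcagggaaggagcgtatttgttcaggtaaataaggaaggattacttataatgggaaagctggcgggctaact

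The Spdef half-site starts 196 bases before the transcription start, and a half-site occurred in 16.1% of 32851 mouse promoters of the same length, on either strand. The distal Gata2 promoter had 67.2% G and C and 22 CpG dinucleotides, the Spdef promoter 52.8% and 7, and the median promoter 52.4%. The second start of Gata2 lies 4773 bases downstream. Its promoter had 74.0% G and C and 2 CCAAT boxes, a motif (CCAAT or ATTGG) held by 33.8% of promoters. The forkhead core TGTTTAC or GTAAACA, the motif of the FOXA family, was found before the start of Foxa1 itself, 141 bases upstream, and in 3.17% of all promoters. No promoter of the 5 factors held the GATA core AGATAA (9.99% of all promoters, either strand) or the oestrogen receptor half-site AGGTCA (14.0%), which says only that these letters are not in these windows. A match is a description of sequence and not a measured binding site.

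Klf5 was the factor with the largest increase. It lies at chr14:99298691-99313405 on the plus strand (ENSMUSG00000005148) and gave 17.6, 20.9 and 11.5 CPM in CON and 30, 32.5 and 43.3 CPM in T + E2. Every T + E2 mouse exceeded every control. The mean rose 2.12-fold, from 16.65 ± 4.76 to 35.26 ± 7.09 CPM (log2 fold change 1.08, SE 0.23, edgeR adjusted p = 0.0137), and the call held without each mouse in turn (log2 fold change 0.87 to 1.28). The counts behind it were the fewest of the 9 in a single mouse, 183 in CON replicate 3, and ran to 650 in T + E2 replicate 3, so counting error was small beside the spread between mice.

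Trp63, the basal-cell factor at chr16:25683763-25892102 on the plus strand (ENSMUSG00000022510), gave 23.2, 26.5 and 27.7 CPM in CON and 35.6, 42.9 and 36.7 CPM in T + E2. The groups were separate and each was narrow. The mean rose 1.49-fold, from 25.81 ± 2.32 to 38.4 ± 3.97 CPM (log2 fold change 0.57, SE 0.11, edgeR adjusted p = 0.0108). The annotation (GENCODE M21) gives 8 coding transcripts, 4 from an upstream start and 4 from an internal one, the source of the ΔN forms that basal cells use. The gene count adds them together, so the forms were not told apart.

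The basal cell markers around Trp63 were uneven. Of 11 tested basal markers 2 rose, among them Lgals7, a galectin of stratified epithelia (log2 fold change 1.12, adjusted p = 0.0432), and the other 9 did not pass. Among all tested genes 10.4% were higher. With any mouse other than CON replicates 1 and 3 left out, 1 of the 11 passed, and with DESeq2 4 did. The summed level of the 12 listed markers was 415 to 532 CPM in CON and 654 to 736 CPM in T + E2. The defining keratins did not pass, and their estimates had opposite signs. Krt5 was at 80.6 ± 23 and 93.5 ± 21.1 CPM (log2 fold change 0.21, edgeR adjusted p = 0.542). Krt14 was at 13.4 ± 5.73 and 9.2 ± 1.99 CPM (-0.54, adjusted p = 0.274). Against the mean of Krt5 and Krt14, the log2 ratio of Trp63 was 0.44 higher in T + E2 with overlapping groups (exact permutation test p = 0.2, adjusted p = 0.333).

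Genes known to be bound or controlled by p63 were mixed. Of 15 tested, 1 was higher and 1 lower, the latter being Igfbp3, an IGF-binding protein (log2 fold change -1.06, adjusted p = 0.00331). Among all tested genes 10.4% were higher and 9.25% lower. The median of the 15 was 0.21, with 2 to 5 passed over the other settings. Trp63 itself kept its direction in all 16 other settings, but its call was lost when libraries were scaled to the summed counts of 12 pan-epithelial genes, where its log2 fold change was 0.29 (adjusted p = 0.0783).

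Foxa1, the pioneer factor at chr12:57540631-57546121 on the minus strand (ENSMUSG00000035451), gave 346, 395 and 374 CPM in CON and 278, 234 and 326 CPM in T + E2. No T + E2 mouse reached the lowest control. The means were 371.7 ± 24.8 and 279.3 ± 46.2 CPM, and the log2 fold change of -0.41 was as large as that of Ehf but with a wider spread (SE 0.13, edgeR adjusted p = 0.0648, unadjusted p = 0.0147). Foxa1 passed with DESeq2 (adjusted p = 0.0207) and without T + E2 replicate 3 (adjusted p = 0.029), so its place on either side of the threshold rested on the method and on 1 mouse.

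Sox9, at chr11:112782224-112787760 on the plus strand (ENSMUSG00000000567), gave 131, 132 and 111 CPM in CON and 100, 79.9 and 129 CPM in T + E2. T + E2 replicate 3 lay among the controls and replicate 2 was the lowest of the 6. The log2 fold change was -0.28 (SE 0.17, adjusted p = 0.282), with a normal-approximation 95% interval of -0.61 to 0.05.

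Relative to the group mean, the T + E2 mice varied more than the controls for 8 of the 9 factors, Klf5 being the exception. The coefficient of variation of CPM ran from 3.5% (Gata3) to 28.6% (Klf5) in CON and from 10.3% (Trp63) to 27.4% (Spdef) in T + E2. T + E2 replicate 2 was the lowest of its group for 6 of the 9 factors and replicate 3 the highest for 5. Trp63, by contrast, was highest in replicate 2, at 42.9 CPM.

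**Figure D3:**
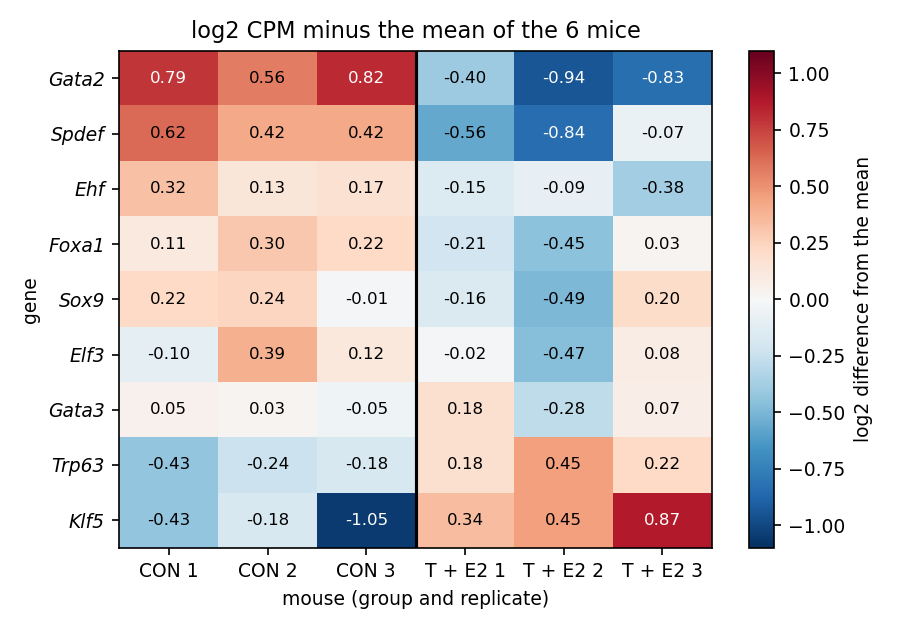
Log2 CPM of each lineage factor in each mouse minus the mean of that factor over the 6 mice, with red above and blue below it and a line between the CON and T + E2 groups. Gata2, Spdef and Ehf change sign between the groups in every mouse, Klf5 and Trp63 do so in the opposite direction, and Gata3 stays between -0.28 and 0.18.

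The order of the factors by level differed between the groups. By mean deposited FPKM in CON, Foxa1 led at 118, followed by Ehf at 73.7, Gata2 at 45.4, Gata3 at 32.7, Sox9 at 30.6, Spdef at 14.2, Elf3 at 10.1, Klf5 at 9.84 and Trp63 at 2.08. Neighbours in this order had separate ranges over the 3 mice except Gata3 with Sox9 and Elf3 with Klf5. In T + E2 Foxa1 at 86.6 and Ehf at 54.1 still led and Trp63 at 3.02 was still last, but Gata2 at 16.3 stood at position 6 behind Gata3, Sox9 and Klf5, while Klf5 at 20.3 went from position 8 to position 5 and Spdef from position 6 to position 8. Gata3 and Sox9, Sox9 and Klf5, Klf5 and Gata2, and Elf3 and Spdef had overlapping ranges there.

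The lengths behind these FPKM values bear on the order. For the 6 factors whose coordinates equal those of GENCODE M21, the length implied by counts and FPKM was the sum of all distinct annotated exons, so overlapping versions of an exon were counted repeatedly, as for Gata2 (8506 bases against 5398 merged). For Klf5 it was 1721 bases against 5201. With TMM-normalized CPM per 1000 bases of merged exon, Ehf led in CON at 127 ± 9.08 before Foxa1 at 112 ± 7.46, Spdef at 35.6 ± 2.89 stood above Sox9 at 30.2 ± 2.83, and Klf5 at 3.2 ± 0.916 overlapped Trp63 at 3.08 ± 0.277 at the bottom. On this scale Gata2 went from position 3 to position 4, with 70.7 ± 6.67 in CON and 26.2 in T + E2. Klf5 stayed at position 8 at 6.78 in T + E2, and no factor moved by more than 1 place. The deposited coordinates of Klf5, however, end at 99313405 and those of M21 at 99315036, so its reads may come from fewer than 5201 bases. Per 1000 bases of implied length, Klf5 was at 9.68 in CON and 20.5 in T + E2. Its place among the factors, and any move, therefore depends on the length taken. Comparisons of 1 factor between groups do not involve the length.

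The level of each factor was also expressed relative to genes of epithelial cells in general. The 12 pan-epithelial genes summed to 3900 to 4250 CPM in CON and 4820 to 5080 CPM in T + E2. Among them Epcam, an adhesion protein (log2 fold change 1.18, adjusted p = 0.000175), Spint2, a protease inhibitor (0.89, adjusted p = 0.00139), and Cdh1, E-cadherin (0.34, adjusted p = 0.0462), rose. The luminal keratin gene Krt18 fell (-0.54, adjusted p = 0.00704), and its partner Krt8 was at 361 ± 57.3 and 327 ± 6.51 CPM (adjusted p = 0.449). Epcam, from 403 to 915 CPM, and Spint2, from 656 to 1210 CPM, had the largest rises in mean CPM. Of the 12 genes 8 did not pass, and their median log2 fold change was -0.01. The higher sum therefore does not describe the typical gene among the 12 genes. Scaling every library to the sum of these genes shifted the log2 fold changes of all tested genes to a median of -0.29, and scaling to their geometric mean to a median of -0.12.

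Against the summed epithelial counts, 6 factors were lower and 1 higher. Sox9 (log2 fold change -0.57, adjusted p = 0.029), Elf3 (-0.55, adjusted p = 0.0265) and Foxa1 (-0.70, adjusted p = 0.00389) then passed, Klf5 remained higher at 0.79, and Gata3 at -0.30 lay next to the shifted median of -0.29. Over all tested genes the same scaling gave 916 higher and 5116 lower calls, where the standard scaling gave 1620 and 1441. Against the geometric mean, Foxa1 also passed (-0.54, adjusted p = 0.0146), Trp63 kept its call at 0.46 (adjusted p = 0.031), and there were 1087 higher and 2356 lower calls in all. Gata2, Spdef and Ehf fell and Klf5 rose under each of the 3 scalings.

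**Figure D4:**
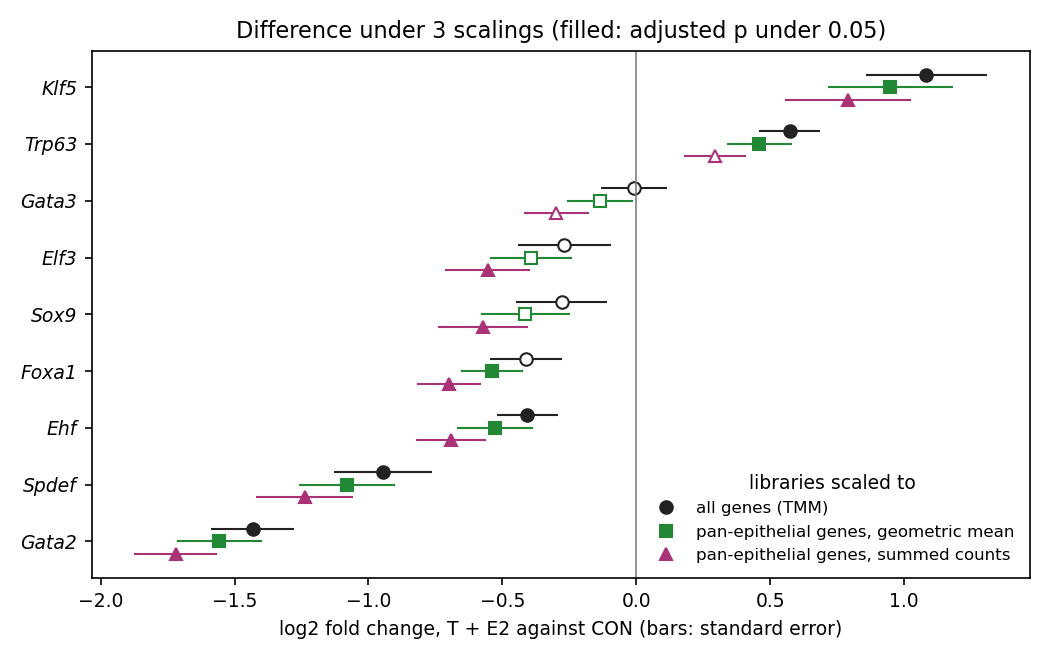
Log2 fold change (T + E2 against CON, bars giving the standard error, n = 3 mice a group) of each lineage factor with libraries scaled to all genes by TMM (circles), to the geometric mean of 12 pan-epithelial genes (squares) and to their summed counts (triangles), filled where the adjusted p is under 0.05. Each estimate moves to the left with epithelial scaling, Trp63 loses its call under the summed counts, and Foxa1, Sox9 and Elf3 gain theirs there.

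Markers of some other epithelial states and cell types also differed between the groups, and their part in the results was not tested. For comparison, 10.4% of all tested genes were higher and 9.25% lower. No tested marker passed for fibroblasts (7 tested), lymphoid cells (7), adipocytes (5) or skeletal muscle (6). For endothelium 1 of 7 was higher, and of 5 tested neuroendocrine markers 1 was higher and 1 lower. Of 11 tested genes of ductal and progenitor-type luminal cells, 6 rose, among them Psca (log2 fold change 5.72, adjusted p = 0.00178) and the keratin gene Krt7 (3.05, adjusted p = 0.000416), and the 12 listed summed to 1160 to 1260 CPM in CON and 1950 to 2280 CPM in T + E2. Luminal secretory markers summed to 57600 to 70000 CPM in CON and 32100 to 37800 CPM in T + E2, with 4 of 12 higher and 3 lower. The lower sum rested on Pbsn, probasin (14200 ± 2220 and 1440 ± 269 CPM, log2 fold change -3.29, adjusted p = 2.45e-05), and Tgm4, a secreted transglutaminase (23400 ± 4290 and 3130 ± 905 CPM, -2.91, adjusted p = 0.000158), since the other 10 summed to 19700 to 30500 CPM in CON and 28100 to 32400 CPM in T + E2. Cd24a also fell (-1.30, adjusted p = 0.000696), while Defb50 (adjusted p = 0.00235) was among those that rose. Of 4 tested urothelial markers 3 rose, with sums of 423 to 643 CPM in CON and 1370 to 1700 CPM in T + E2 over the 7 listed. Upk1a alone made 273 to 502 CPM of this in CON and 1180 to 1420 CPM in T + E2. Upk2, at 0.628 to 0.919 CPM in CON, had enough reads only with the T + E2 mice. Upk3a, Krt20 and Snx31 had too few reads to be tested. The 9 listed epididymal genes summed to 0.463 to 2.17 CPM in CON and to 99.1 to 170.0 CPM in T + E2, of which Spink11 alone made 70.3 to 146 CPM. The 3 tested, Spink11, Adam7 and Eppin, were higher. Adam7, at 0 in CON, and Eppin, at 0 to 0.314 CPM there, had enough reads only through the T + E2 mice. The direction of these 2 was therefore fixed by the filter. Spink11, at 0.331, 0.985 and 0.754 CPM in CON, also would not have been tested on the CON mice alone, so its rise shares part of this limit. Lcn5, Lcn8, Lcn9 and Defb20 were at 0 in all 6 mice. Smooth muscle markers summed to 4260 to 5270 CPM in CON and 3730 to 4080 CPM in T + E2, with 3 of 8 lower, but 1 or fewer passed without CON replicate 3 or without any one of the T + E2 mice. Macrophage markers summed to 187 to 249 CPM in CON and 278 to 408 CPM in T + E2, with 4 of 7 higher (Mrc1, C1qa, C1qb and C1qc), of which 2 passed without CON replicate 2, T + E2 replicate 2 or T + E2 replicate 3 and 1 without CON replicate 3.

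Relatives of the 9 factors within the FOX, p53, SOX, GATA, ETS and KLF families mostly did not pass. Of 25 tested relatives, 2 rose and 1 fell, where 10.4% of all tested genes were higher and 9.25% lower. Their median log2 fold change was -0.01, and 8 passed under the summed epithelial scaling. The forkhead gene Foxq1 rose from 34.9 ± 7.79 to 79.4 ± 13.2 CPM (log2 fold change 1.19, edgeR adjusted p = 0.00317), and Klf3, a transcriptional repressor, from 86.2 ± 5.48 to 136 ± 1.36 CPM (0.66, adjusted p = 0.00178). Sox10, best known from neural crest cells, fell from 10.9 ± 2.09 to 3.44 ± 0.829 CPM (-1.66, adjusted p = 0.00259). Several close paralogues were nearly silent, as Foxa2, Foxa3, Gata1, Gata4 and Trp73 had 0 to 15 counts over the 6 mice together and were not tested.

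Among 25 other tested transcription factors of prostate and other epithelia, 1 rose and 4 fell, with a median of -0.12. These 5 of 25 were near the share of all tested genes that passed, 19.6%, with 10.4% higher and 9.25% lower. Tfap2c, an AP-2 factor, rose (log2 fold change 0.47, adjusted p = 0.0302). The 4 that fell were Creb3l4, a bZIP factor abundant in prostate (-0.99, adjusted p = 0.00248), the T-box gene Tbx3 (-0.79, adjusted p = 0.00225), the orphan receptor gene Nr2f1 (-0.57, adjusted p = 0.0207) and Grhl1 of the grainyhead family (-0.45, adjusted p = 0.0438). The count of 5 was 2 without CON replicate 3, 3 without T + E2 replicate 2, and 12 under the summed epithelial scaling. Hoxb13, a homeobox gene of the luminal prostate that was chosen after its values were seen, was at 461 ± 9.49 and 415 ± 23.1 CPM (adjusted p = 0.276).

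Genes that SPDEF is known to drive in goblet cells were split. Agr2, a disulphide isomerase of secretory cells, rose from 755 ± 101 to 1480 ± 275 CPM (log2 fold change 0.97, adjusted p = 0.00536), while Fcgbp, a mucus protein, fell from 53.4 ± 6.5 to 13 ± 1.73 CPM (-2.04, adjusted p = 6.6e-05). Of the 12 listed only 5 were tested, since 7, including Foxa3 and Muc5ac at 0 in all mice, had too few counts.

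**Figure D5:**
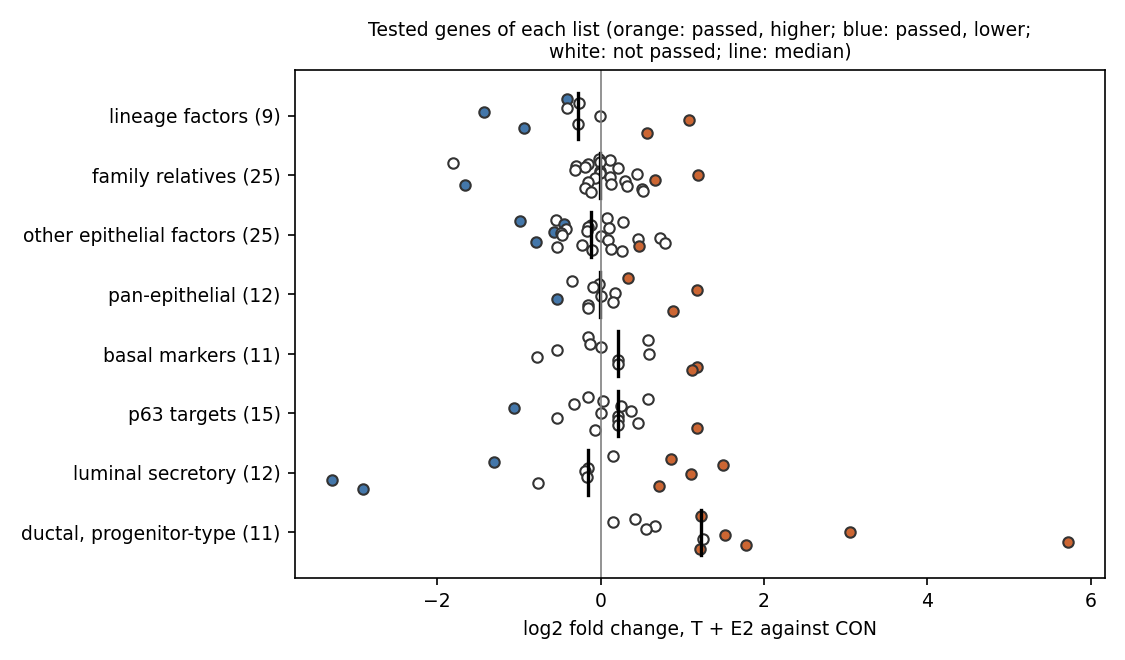
Log2 fold change (T + E2 against CON) of each tested gene of the lineage factors and 7 further lists, the number tested in brackets, with passed genes in orange (higher) or blue (lower), others in white and a line at the median. The lineage factors spread from -1.43 to 1.08 around a median of -0.28, and the ductal and progenitor-type list lies furthest to the right with a median of 1.23.

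Genes next to the factors on the chromosome were compared as well. Of the 18 nearest tested neighbours, 1 on each side of each factor, 1 was higher and 6 were lower. Among all tested genes 10.4% were higher and 9.25% lower. Factors that did not pass also had lower neighbours (edgeR): Ttc6 beside Foxa1 (-0.53, adjusted p = 0.033), 2610035D17Rik beside Sox9 (-0.63, adjusted p = 0.0214) and Gpr37l1 beside Elf3 (-3.19, adjusted p = 6.58e-05). On the 2 sides of Spdef, Pacsin1, a membrane-bending protein 2.87 kb away (log2 fold change -1.46, adjusted p = 0.022), and D17Wsu92e, 22.3 kb away (-0.64, adjusted p = 0.00509), were also lower. Beside Trp63, Lpp, a focal adhesion protein 691 kb away, rose (0.66, adjusted p = 0.00275), and P3h2, 67.2 kb away, was at -0.01 (adjusted p = 0.986). Beside Klf5, Klf12, a repressor of the same family 556 kb away, fell (-3.25, adjusted p = 0.00127), opposite to Klf5, and Pibf1 was at 0.37 (adjusted p = 0.127). Neither Gm38708 (-0.03) nor Eefsec (-0.18) beside Gata2 passed (adjusted p = 0.966 and 0.467). Beside Ehf, the related ETS gene Elf5, 108 kb away, had a log2 fold change of -1.81 without passing (adjusted p = 0.088), its CON mice ranging from 3.64 to 20.4 CPM with the highest in CON replicate 2.

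The genes whose levels over the 6 mice came closest to a factor were found by the root mean square difference of centred log2 CPM, among 10493 genes with a mean log2 CPM of at least 3. Closest to Gata2 was Atp6v1c2, a subunit of the proton pump V-ATPase, with a difference of 0.0725, followed by Tbc1d9 (0.0935) and Mfsd9 (0.109). For Spdef they were Plekha6 (0.0864), Kctd17 (0.0991) and Dopey2 (0.0999), for Ehf Tmem123 (0.0253), Fpgt (0.0454) and Papd4 (0.0625). Closest to Trp63 was Pdpn, podoplanin (0.0536), then Papss1 (0.0637) and Capza1 (0.0655). The patterns nearest to Klf5 were less close, with Slc2a12 (0.137), Ccbe1 (0.163) and Acp5 (0.183). With 6 mice in 2 groups, such likeness is a description of level across these libraries.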

How the data were processed

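The 9 factors and all gene lists were chosen with earlier results of these data known. The authors deposited counts per gene and FPKM for each mouse in 1 table. TopHat, Bowtie2 and HTSeq are named in the submitters' processing notes, whereas versions, genome build, annotation and strand setting are not given in the sources used here. The deposited counts were tested with edgeR 4.0.16 (TMM, filterByExpr with a minimum count of 10 and a total of 15, quasi-likelihood test, Benjamini-Hochberg adjustment over 15580 genes). The common biological coefficient of variation was 18%. Intervals of log2 fold changes use a normal approximation to the SE, so they are narrower than the quasi-likelihood test with few mice implies. The script was tested on simulated data. DESeq2 1.42.0, limma 3.58.1 on log2(FPKM + 0.1) and log2(FPKM + 1), other scalings and filters, a replicate block and the omission of each mouse were alternatives. The geometric-mean scaling and the merged exon lengths were added after seeing the data. Ratios were compared by exact permutation tests (SciPy 1.17.1). Coordinates are those of the table, which equal GENCODE M21 (GRCm38) for 6 factors. Promoters came from RefSeq (GRCm38.p6). Named were all 9 factors, list genes that passed with the largest change (up to 4 a list unless over 1 on the log2 scale), defining cell markers, neighbours and overlapping genes of passed factors, and the 3 closest genes by pattern. 4930412O13Rik was named for its overlap with Gata3 after its values were seen, as were Ttc6, 2610035D17Rik and Gpr37l1, neighbours of factors that did not pass. Libraries held 14816146 to 16555549 counts, so 3 counts equalled 0.182 to 0.207 CPM. Results for some listed genes are not reported here.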

Additional observations from a re-analysis of the deposited data

How the results depend on the processing

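Over 16 alternative settings of each of the 9 factors, 144 in all, 127 kept the direction and the side of the threshold, 8 lost a call, 6 gained one and 3 changed sign. Gata2, Spdef and Klf5 kept their calls throughout. The 3 changes of sign were those of Gata3, at 0.01 without CON replicate 1, 0.00 without CON replicate 2 and 0.11 without T + E2 replicate 2 (range -0.10 to 0.11). Scaled to the summed pan-epithelial counts, 6 factors were lower and 1 higher. Of all tested genes 6032 passed against 3061, and of the lists 80 distinct genes passed against 52. The epithelial sum was higher in T + E2, with the largest rises in Epcam and Spint2, so this scaling lowers each gene relative to it. The number of all tested genes passed ran from 1929 (without CON replicate 3) to 2741 when a mouse was left out, and was 1978 without T + E2 replicate 2. Genes passed with an absolute log2 fold change over 1 numbered 1191, 972 to 1152 with a mouse left out and 561 with limma on log2(FPKM + 1), where the pseudocount shrinks low genes. With merged exon lengths, 1 pair of neighbours in the CON order overlapped instead of 2. This pair was Klf5 and Trp63, and it depends on the length taken for Klf5. The Ehf to Elf3 difference of -0.14 became 0.04 without CON replicate 1 and 0.06 without T + E2 replicate 3 (range -0.36 to 0.06), and the cause was not tested. With a replicate block, 2174 of all tested genes and 4 factors passed, Ehf being lost (adjusted p = 0.0674), but the numbers mark no shared litter or day, deviations of same-numbered mice correlated at -0.0516, 0.0275 and 0.0463, and not every mouse correlated best with its own number. The number of mice, 3 a group, limits these calls more than counting error does.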
